A study of Homo sapiens with 6 samples.

Results

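The granins SCG2, CHGB, SCG5 and VGF were followed through ribosome footprints of WPMY-1 cells, a human prostate stromal cell line with myofibroblast features, immortalised with a viral oncogene. The 4 genes are ENSG00000171951.5_7 (SCG2), ENSG00000089199.10_7 (CHGB), ENSG00000166922.8_3 (SCG5) and ENSG00000128564.7_6 (VGF), found by their Ensembl IDs among the 62492 gene IDs of the deposited table. The set was chosen by the footprint counts of SCG2, which lay near 0 in the control libraries and at 571 or more in the knockdown libraries; the other granins were added as its relatives. The contrast between knockdown and control therefore picked the set, and the values of that contrast, calls of the members included, are given as a description from which nothing is inferred.

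Ribosome profiling counts short mRNA fragments that a translating ribosome shields from a nuclease. Cells labelled TRMT61A knockdown carried a short hairpin RNA (shRNA) named sh61A against TRMT61A, the catalytic subunit of the tRNA methyltransferase that makes 1-methyladenosine. Cells labelled TRMT61A wildtype carried a control hairpin, and each group had 3 libraries. All 6 libraries came from WPMY-1 with 1 hairpin per group, the labels give no dose, time or second hairpin, and they do not say whether the libraries of a group were separate cultures, so the spread between them may be technical. Knockdown libraries held 12704354 to 17752247 counts and control libraries 6771455 to 8008896, a ratio of group means of 1.98. Because the files give no gene names, TRMT61A itself, stromal, epithelial and neuroendocrine marker genes, and the other genes of granule formation could not be looked up, so neither the knockdown nor the cell type was checked here.

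Granins are acidic proteins of dense-core secretory granules, the compartments in which neurons and endocrine cells store hormones and peptides until a stimulus releases them. They help to pack the granule, and prohormone convertases cut several of them into peptides that are released with the hormone. In the prostate they are best known as markers of neuroendocrine cells, which lie in the epithelium. SCG2 (secretogranin II) is the precursor of secretoneurin, a peptide that attracts monocytes and promotes vessel growth. CHGB (chromogranin B) is a granule matrix protein, SCG5 a chaperone of the prohormone convertase PCSK2, and VGF a precursor of several neuropeptides, first found as a gene induced by nerve growth factor in rat cells.

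Granin genes are also known as targets of CREB, a transcription factor activated by cyclic AMP, and the VGF promoter is a standard example, studied mainly in rat. For this reason the promoters of the 2 members held by the RefSeq promoter table (build GRCh38.p14) are shown, as context for the family. Footprint counts do not measure transcription. Capitals mark the CREB-binding cyclic AMP response element TGACGTCA or its 5-letter core TGACG, which lies inside it, searched on both strands. The VGF window is chr7:101165520-101165819 on the minus strand, and the SCG5 window is chr15:32641460-32641759 on the plus strand, each written 5′ to 3′ along the gene.
VGF: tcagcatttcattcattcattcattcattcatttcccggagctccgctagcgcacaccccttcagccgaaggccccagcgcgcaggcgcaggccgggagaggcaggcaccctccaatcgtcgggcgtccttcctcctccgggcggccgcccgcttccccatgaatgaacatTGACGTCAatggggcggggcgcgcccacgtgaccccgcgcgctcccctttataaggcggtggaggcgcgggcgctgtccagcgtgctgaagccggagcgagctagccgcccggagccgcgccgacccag
SCG5: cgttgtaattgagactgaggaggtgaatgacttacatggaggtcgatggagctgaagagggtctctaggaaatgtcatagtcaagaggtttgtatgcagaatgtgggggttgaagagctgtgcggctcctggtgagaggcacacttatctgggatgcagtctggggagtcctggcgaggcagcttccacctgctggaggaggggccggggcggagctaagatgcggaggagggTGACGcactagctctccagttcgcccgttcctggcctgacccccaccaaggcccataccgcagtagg
The VGF window held 1 complete element, whose first base lies at -79 from the annotated start, and the SCG5 window held none and 1 core, at -17. The complete element occurred in 649 of 35116 promoter windows of the same length (1.85%), and the core in 24.6%. The AP-1 motif TGAGTCA, searched in the same way and found in 4.95% of windows, was in neither.

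SCG2 was almost absent from control footprints and had 571 or more counts in every knockdown library. It had 1102, 571 and 603 counts in knockdown libraries 1 to 3, against 0, 0 and 10 counts in control libraries 1 to 3. Values scaled for depth by TMM and given per 1e6 counts (CPM) were 72.5, 48.4 and 48.9 in the knockdown libraries, against 0, 0 and 1.13 in the control libraries. All 3 knockdown libraries lay above all 3 control libraries, and the highest control value was far below the lowest knockdown value. The group means were 56.6 ± 13.8 CPM in the knockdown and 0.378 ± 0.655 CPM in the control (SD, n = 3 each), a ratio of 150. In bulk samples, more cells that make SCG2 and more SCG2 per cell cannot be told apart, nor can footprint counts alone tell more SCG2 mRNA from denser ribosomes on it.

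**Figure D1:**
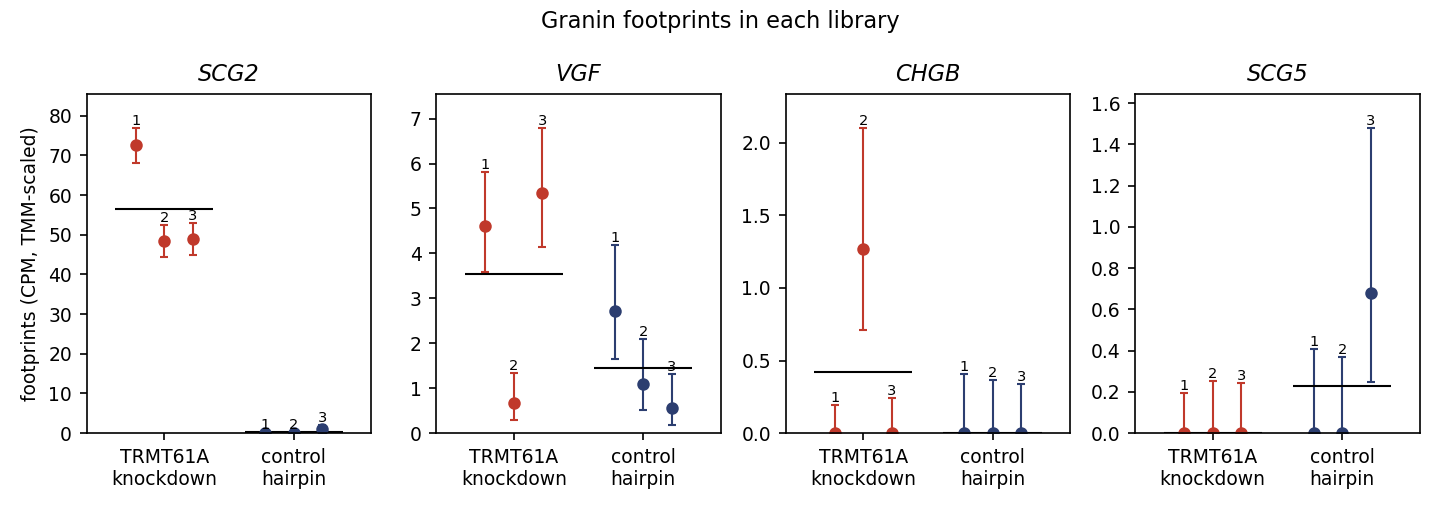
Footprints of each granin in TRMT61A knockdown and control hairpin libraries, in TMM-scaled CPM on a linear axis that differs between panels. Points are libraries, numbered by replicate, bars are exact 95% Poisson intervals of the count, or at 0 the floor of 3 counts (counting error only), and black lines are group means. The SCG2 points of the knockdown sit between 48.4 and 72.5 CPM, all above the control points, the VGF groups overlap, and CHGB and SCG5 each have counts in 1 library.

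The size of the SCG2 difference depended on which control library it was set against. Control library 3, the only one with SCG2 counts, was exceeded 63.9-fold by knockdown library 1, 42.7-fold by knockdown library 2 and 43.1-fold by knockdown library 3. Against control libraries 1 and 2, each taken at a floor of 3 counts per library, the knockdown libraries were at least 119-fold to at least 197-fold higher. The lowest of all 9 pairings of a knockdown with a control library was thus 42.7-fold. Leaving out control library 3 puts both remaining controls at 0, and the mean of the knockdown libraries was then 146-fold above the mean floor of 0.387 CPM.

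The counting error of each SCG2 share is given as a description, since the difference between the groups chose SCG2. SCG2 took 0.00621% of the counts of knockdown library 1 (Wilson 95% interval 0.00585 to 0.00659), 0.0043% of knockdown library 2 (0.00396 to 0.00467) and 0.00475% of knockdown library 3 (0.00438 to 0.00514). In control library 3 the share was 0.000136% (7.41e-05 to 0.000251). For the 0 counts the upper Wilson limit was 4.8e-05% in control library 1 and 5.67e-05% in control library 2. These intervals and limits cover counting error only, since no molecular identifier is described and copies made by PCR count as separate reads.

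The knockdown libraries were deeper, and the libraries were also thinned at random to the total of the shallowest one. SCG2 then had 408, 307 and 330 counts in knockdown libraries 1 to 3, against 0, 0 and 10 counts in control libraries 1 to 3. The fitted log2 fold change was 6.97, against 7.09 at full depth. With counts this far apart, thinning to these totals could not have made the groups overlap, so nothing is read from it. The part of depth in the result was not tested.

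Among the knockdown libraries SCG2 was highest in library 1 and close to equal in libraries 2 and 3. The coefficient of variation (SD over mean) of SCG2 over the knockdown libraries was 24.3%. Among 1147 tested features whose knockdown mean lay within a factor of 1.5 of that of SCG2, the median was 18.6%, and 69.9% had a lower value. SCG2 was therefore within the usual range for its abundance, with a middle range (quartiles) of 12.3% to 26.5%.

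Set among all genes, SCG2 had one of the larger fitted folds. The edgeR fit over 11653 features that passed the count filter gave SCG2 a log2 fold change of 7.09 ± 0.73 (SE), rank 13 from the top, against a median of -0.0047 over all tested features. Of the 12 features ranked above it, 11 had 0 counts in every control library, so their fitted values depend on the prior count. Those 12 averaged 1.97 to 7.55 CPM in the knockdown, against 56.6 CPM for SCG2.

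**Figure D2:**
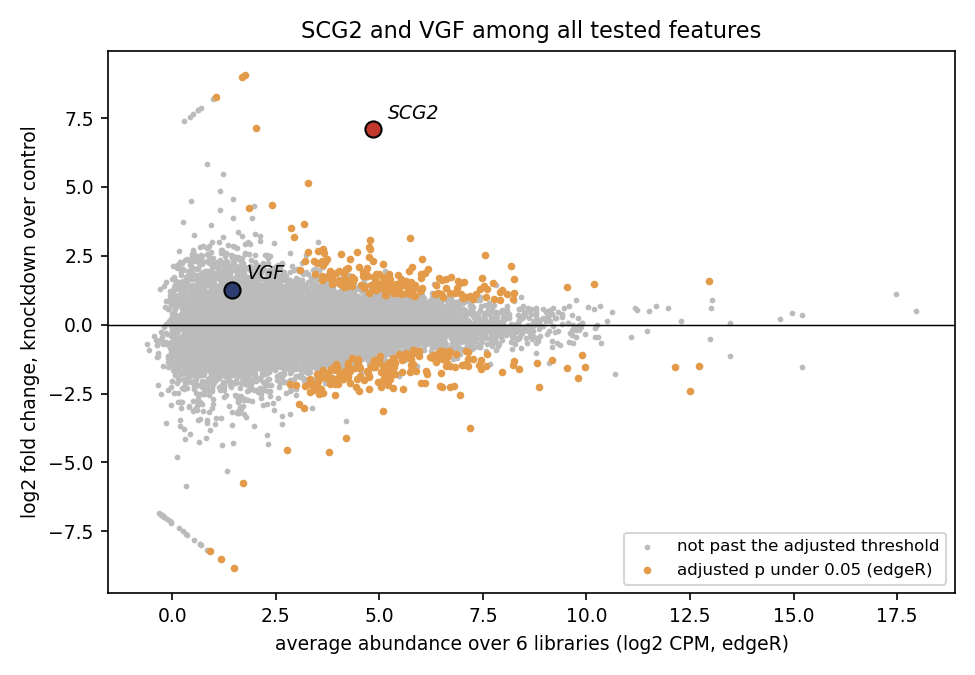
Log2 fold change of the knockdown over the control (edgeR fit) against average abundance in log2 CPM for the 11653 tested features. Orange points have an adjusted p under 0.05 in edgeR and grey points do not. SCG2 at 7.09 stands well above features of like abundance, while VGF at 1.28 lies inside the grey cloud.

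VGF was the only other granin with enough footprints to enter the fit. It had 70, 8 and 66 counts in knockdown libraries 1 to 3, against 20, 9 and 5 counts in control libraries 1 to 3. In CPM these were 4.60, 0.678 and 5.35 in the knockdown libraries, against 2.71, 1.10 and 0.567 in the control libraries. Knockdown libraries 1 and 3 were above all control libraries, but knockdown library 2 was below control libraries 1 and 2, so the groups overlapped. The means were 3.54 ± 2.51 CPM in the knockdown and 1.46 ± 1.12 CPM in the control (SD, n = 3 each), with a log2 fold change of 1.28 ± 1.12 (SE). The difference is about as large as its own error. It also leaned on single libraries, since the log2 fold change was 0.86 without knockdown library 3, 1.77 without knockdown library 2 and 2.07 without control library 1.

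Knockdown library 2, low for VGF, was not set apart from knockdown library 3 in SCG2, where they were at 48.4 and 48.9 CPM. The coefficient of variation of VGF was 70.8% in the knockdown and 76.4% in the control. For 1932 features of like knockdown mean the median was 57.6%, and for 1229 features of like control mean it was 70.0%, so VGF varied about as features at its level do. Across the 6 libraries Pearson's r between log2 CPM of VGF and SCG2 was 0.344, a description over libraries that share their groups and depth.

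CHGB and SCG5 were close to undetected. CHGB had 0, 15 and 0 counts in knockdown libraries 1 to 3, against 0, 0 and 0 counts in control libraries 1 to 3. Its only level was 1.27 CPM, in knockdown library 2. Counts of 0 allow up to 0.197 CPM in knockdown library 1 and 0.243 CPM in knockdown library 3, and up to 0.340 to 0.407 CPM in the control libraries, at 3 counts each. SCG5 had 0, 0 and 0 counts in knockdown libraries 1 to 3, against 0, 0 and 6 counts in control libraries 1 to 3, where 6 counts are 0.680 CPM. Neither passed the count filter, so neither has a fitted fold change, and with counts in 1 library of 1 group no direction is given. RefSeq places 4 other genes over SCG5, among them its antisense gene SCG5-AS1 and the readthrough gene ARHGAP11A-SCG5, so reads of that locus could be assigned in more than 1 way. It places 0 over each of SCG2, CHGB and VGF.

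Of the 4 members 2 were tested, and 1 of those, SCG2, was called (edgeR, adjusted p under 0.05 over all tested features). Over all tested features 3.12% were called and 1.48% were called higher in the knockdown. SCG2 was also the only member whose 3 knockdown libraries all exceeded the 3 control libraries, a pattern seen in 12.2% of tested features. Since this contrast chose SCG2, nothing is read from its call. Footprints per gene were not divided by a coding length, because no length was given, and levels of different granins are therefore not ranked against each other.

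Over the 6 libraries, 2 features followed SCG2 most closely among 5907 others with a mean of at least 10 CPM. ENSG00000011201.12_6 had a Pearson r of 0.995 with SCG2 in log2 CPM, and values of 66.1, 50.6 and 56.7 CPM in the knockdown libraries against 14.9, 14.3 and 25.5 CPM in the control libraries. ENSG00000121858.11_5 also had r = 0.995, and values of 21.5, 15.7 and 20.8 CPM in the knockdown libraries against 2.17, 2.45 and 4.31 CPM in the control libraries. In both, knockdown library 1 was the highest of its group and control library 3 the highest of its own, as for SCG2, though their controls were well above 0. The files give no names for these IDs. The choice took the highest of 5907 values over libraries that share their groups and depth, so it describes these libraries only.

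**Figure D3:**
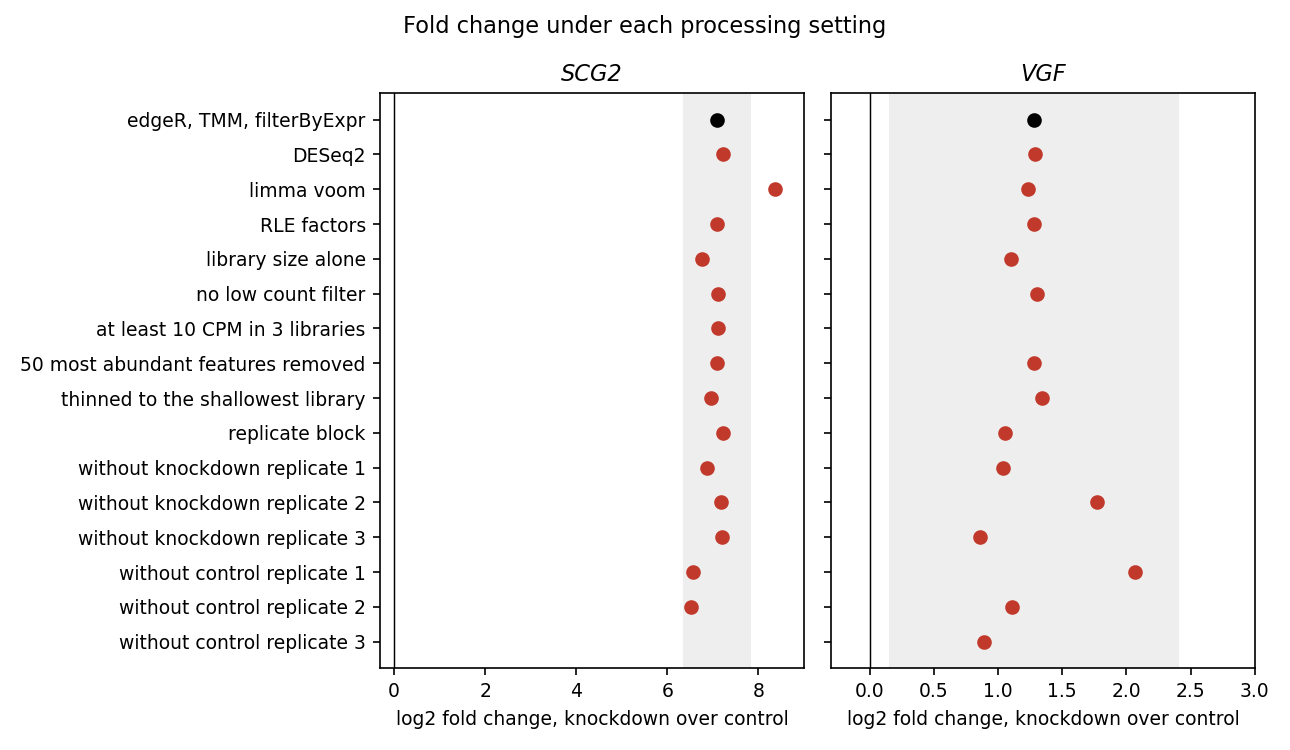
Fitted log2 fold change of SCG2 and VGF, knockdown over control, under each processing setting. The black point is the value as reported, red points are alternatives and the grey band is the reported value ± 1 SE. SCG2 stays between 6.52 and 8.36 and VGF between 0.86 and 2.07. No SCG2 point is drawn without control replicate 3, where the controls are at 0, and no VGF point at 10 CPM in 3 libraries, where it is filtered out.

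The fold changes varied in size and not in direction under the settings that could be fitted. With SCG2 counts this far apart, none of these settings could have reversed its direction, so nothing is read from that. For SCG2 the values ran from 6.52 without control library 2 to 8.36 with limma voom, over 14 alternatives. For VGF they ran from 0.86 to 2.07, also over 14 alternatives.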

How the data were processed

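Ribosome-protected fragments of WPMY-1 cells were prepared with RNase I, monosome isolation, rRNA depletion and gel selection, per the labels' protocols. The authors deposited raw read counts per gene ID. The tools named are fastp and Bowtie 1.3.1 with hg38, per the submitters' processing notes; the counter, its annotation and its use of strand are not stated there. The control columns, named for a vector, were matched by assay, replicate number and elimination. A further 6 columns, named for RNA, match none of the samples described here and were not used, so no mRNA level or translational efficiency is given. IDs were not named beyond the 4 members, since 0 matched the RefSeq gene table, and the 10 gene lists (130 genes, by symbol) were not analysed. The members and lists were chosen with earlier results of these data known.

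Counts were fitted with edgeR 4.0.16 in R 4.3.3 (filterByExpr, TMM, glmQLFit and glmQLFTest, two-sided, Benjamini-Hochberg over all 11653 tested features, threshold 0.05). The SE is the size of the log2 fold change over the square root of F. The fit was also run on simulated data, whose outcome is not reported here and is not used as support for any value. Alternatives used DESeq2 1.42.0, limma 3.58.1, other scalings and filters, thinning, a replicate block and leaving out each library. Named features were all members and the 2 features most like SCG2 by Pearson's r (log2 CPM, prior count 2). Deviations from group means were close to uncorrelated between same-numbered libraries (r = -0.0065, -0.015 and 0.039). Differently numbered libraries were not compared, so this does not settle whether the libraries were paired. No 2 libraries of a group agreed within sampling noise.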

Additional observations from a re-analysis of the deposited data

How the results depend on the processing

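SCG2 moved by more than the spread between libraries (pooled SD 1.17 in log2 CPM) in 1 of 14 alternatives, limma voom at 8.36, and VGF in 0 of 14 (pooled SD 1.26). This yardstick is wide, so few moves are no sign of stability. The VGF SD is about as large as its log2 fold change of 1.28, and the SCG2 SD includes controls with 0, 0 and 10 counts. With the replicate block the log2 fold changes were 7.23 for SCG2 and 1.05 for VGF, and 208 features were called. Leaving out 1 library gave 6.52 to 7.20 for SCG2 and 0.86 to 2.07 for VGF. CHGB and SCG5 had no value, since neither passed the count filter. The count of called features was 364 of 11653 tested as reported, and 799 of the 7134 given an adjusted p by DESeq2. It was 735 of 20515 without the low count filter and 602 of 6111 with at least 10 CPM in 3 libraries. Because the number tested differs, these counts alone do not show a change in the share called. With 1 library left out, 11886 to 12706 features were tested and 47 to 171 called. The count was 47 without control library 2, 77 without control library 3 and 83 without knockdown library 2. It was 138 without control library 1, 167 without knockdown library 1 and 171 without knockdown library 3. Without TMM, by library size alone, 63 features were called higher and 334 lower, against 173 and 191, and the SCG2 and VGF log2 fold changes were 6.77 and 1.10. What causes these shifts was not tested. At these depths a level under 0.197 to 0.407 CPM, 3 counts in a library, cannot be told from 0, which limits what can be said of CHGB and SCG5.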

Other observations

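The counts of CHGB and of SCG5 each lay in 1 library. Among the 135 features with a total of 15 counts over the 6 libraries, CHGB itself included, 28.1% had all their counts in 1 library. Among the 328 features with a total of 6 counts, SCG5 itself included, the share was 47%. The comparison was chosen after these counts were seen.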
